A study of Mus musculus with 64 samples.

Results

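The Wnt ligands, their receptors and the secreted antagonists that bind them were followed through 8 mouse pancreatic tumour lines grown alone (mono-culture) or with fibroblasts (coculture). Members were chosen by symbol: every Wnt, Frizzled (Fzd), Lrp5 or Lrp6, secreted Frizzled-related protein (Sfrp) and Dickkopf (Dkk) gene in the table of read counts. This rule found 39 of the 39017 genes, made up of 19 Wnt, 10 Fzd, 2 Lrp, 4 Sfrp and 4 Dkk genes. Of these, 23 passed the filter on low counts in the comparison over the 8 lines, and 24 in the comparison of single libraries, which added Wnt6.

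Wnt proteins are lipid-modified secreted ligands that act mostly on the cell that makes them and on its close neighbours. A Wnt bridges a Frizzled receptor and the coreceptor Lrp5 or Lrp6, which blocks the destruction of β-catenin and lets it act on genes through TCF/LEF factors, whereas other Wnt and Frizzled pairs signal to the cytoskeleton without β-catenin. Sfrp proteins bind Wnts through a domain shared with the Frizzleds, and Dkk1, Dkk2 and Dkk4 act on Lrp5 and Lrp6. The pathway takes part in forming the pancreas, and it is used to varying degrees in pancreatic ductal tumours.

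The design crossed the 8 lines with the 2 cultures, with 4 libraries in each of the 16 combinations (64 libraries). 7 lines were clones named by the letters E, H, K, M, N, T and V that, per the study, were subcloned from a polyclonal line of a single tumour of a mouse whose alleles included Trp53+/R172H and Pdx1-Cre, whose Cre is driven in pancreatic progenitors. The eighth line was labelled KPC1. All were labelled as murine pancreatic tumour cells of a mixed C57BL/6 background. Coculture lasted 48 h, after which the GFP-marked tumour cells were separated from the fibroblasts by flow cytometry, and no label says whether mono-cultures were sorted as well. If they were not, sorting and coculture cannot be told apart in any comparison of the cultures. The study placed E, H and V in group 1 and K, M, N and T in group 2 by their metabolites. Each clone is 1 clone, and no label says whether the 4 libraries of a group came from separate cultures, so that p-values from single libraries measure only the spread between libraries, which may be technical.

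The libraries carry 2 series of sample numbers, and all 4 mono-culture libraries of K carry numbers of the second, so that for K series and culture overlap in part. The series were also split unequally between the cultures in V, N and KPC1. Libraries held 11178721 to 21333683 counts, and each of the 64 resembled a library of its own line and culture most. Of 20 fibroblast genes on a list, 17 could be tested over the lines and 16 changed between mono-culture and coculture, 15 upwards and 1 (Twist2) downwards. Their summed level was 111 to 396 CPM (counts scaled to the depth of the library) in mono-culture and 316 to 2160 CPM in coculture. Thy1 and Lum had no count in any of the 32 mono-culture libraries, and Tcf21 had none in any library. The mRNA of 4 defining fibroblast genes (Dcn, Fap, Postn and Thy1) summed to at most 0.201 CPM in mono-culture but to 14.6 to 155 CPM in sorted coculture. The keratins Krt8 and Krt18, of simple epithelia, were at line means of 688 CPM and 968 CPM or more in mono-culture. Cdh1 ranged from 0.998 to 304 CPM between lines in mono-culture, and the epithelial markers Epcam and Cldn4 were near 0, at line means of at most 0.37 and 0.841 CPM. In these bulk libraries, fewer cells of a type and less RNA per cell cannot be told apart.

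Which Wnt ligands did these cells make, and how was the set divided among them? Levels of different genes were compared on the authors' RPKM scale (reads per kilobase of transcript, scaled to the depth of the library), with no test. In mono-culture, Wnt4 supplied most of the ligand mRNA in E, K, M and T, at 73.8%, 77.4%, 79.5% and 74.8% of the summed Wnt RPKM. Clone N held Wnt4 (41.1%) and Wnt7b (38.2%) side by side as means of its 4 libraries, but the balance differed between those libraries. Wnt4 read 29.8, 51.8, 12 and 9.55 RPKM in libraries 1 to 4, whereas Wnt7b was lower in libraries 1 and 2 than in 3 and 4 (CPM values below). In V and KPC1 Wnt7b led with 48.2% and 41.4%, and in H Wnt10b led with 31.7% ahead of Wnt7b with 27.7%. The RPKM of Wnt10b implies a length of 0.732 times its annotated exons, those of Fzd4 and Fzd8 0.609 and 0.592 times and that of Fzd3 0.348 times, so the shares of these genes are less sure than those of Wnt4, at 1.05, or Wnt7b, at 0.94. Wnt4 is a ligand best known from kidney and female reproductive tract development, and Wnt7b from lung and vascular development and as a ligand that signals through β-catenin. The summed level was highest in V, at 81.3 RPKM, and lowest in KPC1, at 24.3 RPKM.

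In coculture Wnt7b was the leading ligand in E (75.4%), N (68.5%), T (67%), V (53.1%) and KPC1 (58.2%). Wnt4 stayed first in K (48.1%) and M (39.1%), with Wnt7b second at 30.3% and 29.7%. In H Wnt10b was first (28.8%), with Wnt7b at 27.9%. The summed Wnt RPKM was lower in coculture than in mono-culture in every line, by the most in T, from 47.2 to 18.6, and by the least in KPC1, from 24.3 to 23.9.

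**Figure D1:**
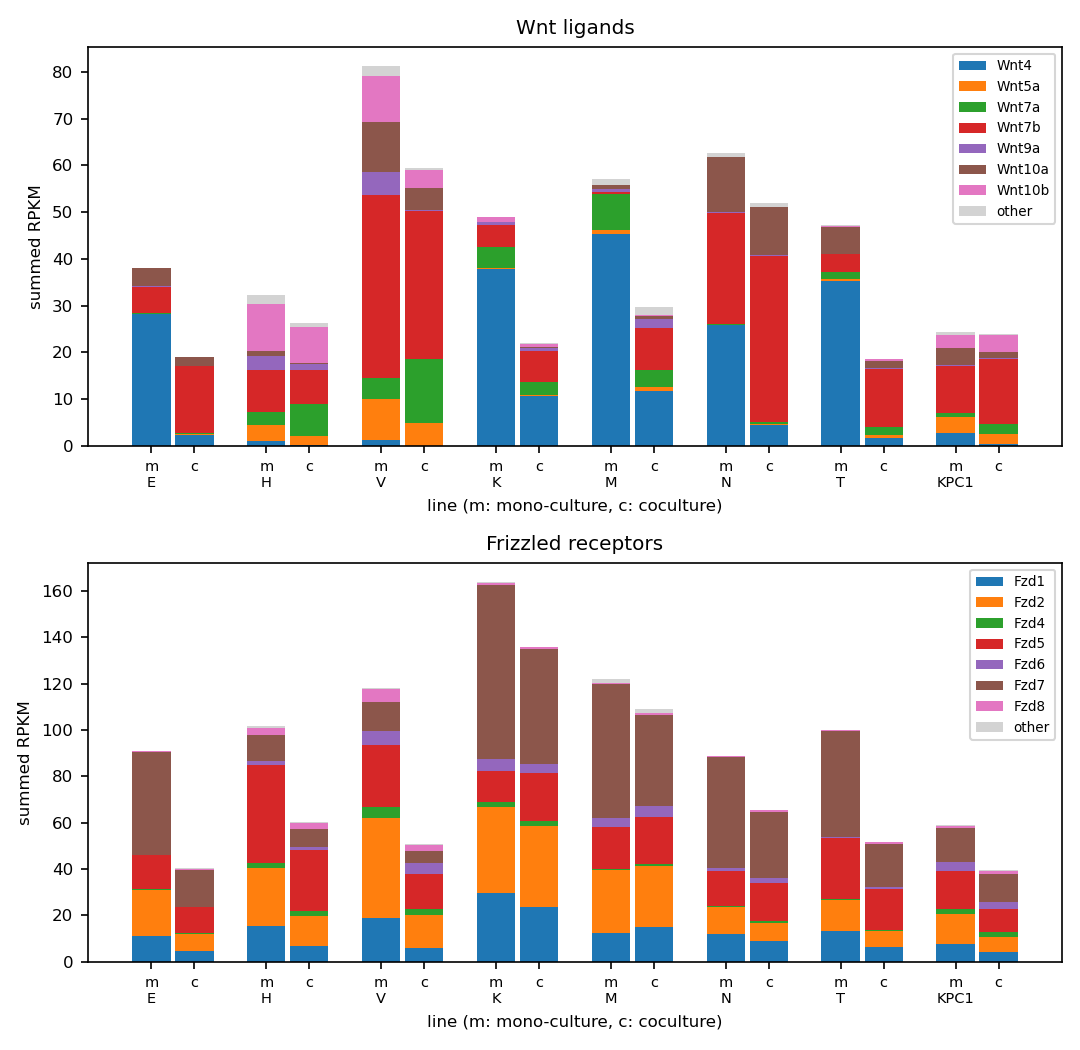
Stacked bars of the mean RPKM of each Wnt ligand (upper panel) and Frizzled receptor (lower panel) in the mono-culture (m) and coculture (c) of each line, 4 libraries a bar, with the 7 highest genes of each family in colour. Wnt4 makes up most of the mono-culture bars of E, K, M and T and little of the coculture bars of E and T, while the Frizzled bars are made mostly of Fzd1, Fzd2, Fzd5 and Fzd7 throughout.

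Among the receptors, Fzd1, Fzd2, Fzd5 and Fzd7 together held most of the Frizzled RPKM in every line and culture. Fzd7 was the highest Frizzled in the mono-cultures of E, K, M, N and T, at 45.4% to 54% of the summed Frizzled RPKM. Fzd5 led in H and KPC1 with 41.7% and 27.6%, and Fzd2 led in V with 36.4%. In mono-culture no library had less than 28.8 CPM of any of these 4 receptors. The summed Frizzled RPKM was lower in coculture in every line, by the most in V, from 118 to 50.6, and by the least in M, from 122 to 109. The coreceptors were the most even of the members tested, with line means differing 1.65-fold for Lrp6 and 1.97-fold for Lrp5 in mono-culture. Their levels were 11.8 to 22.8 RPKM for Lrp5 and 9.96 to 16.8 RPKM for Lrp6.

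16 members were at or near 0 and were not tested over the lines. Wnt8a, Wnt9b, Fzd10 and Dkk1 had no count in any of the 64 libraries. Wnt2, Wnt3, Wnt3a, Wnt8b and Dkk4 had at most 3 counts over all libraries together. The other 7 were Sfrp5, Wnt16, Wnt1, Fzd9, Wnt11, Sfrp4 and Wnt6, whose totals over 64 libraries ran from 19 counts for Sfrp5 to 343 counts for Wnt6, with a highest count in any library of 44 for Wnt6. The highest counts of the other 6 were 12 for Sfrp4, 6 for Wnt11, 8 for Fzd9, 6 for Wnt1, 3 for Wnt16 and 2 for Sfrp5. At this depth absence and a level below a few counts per library cannot be distinguished.

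**Figure D2:**
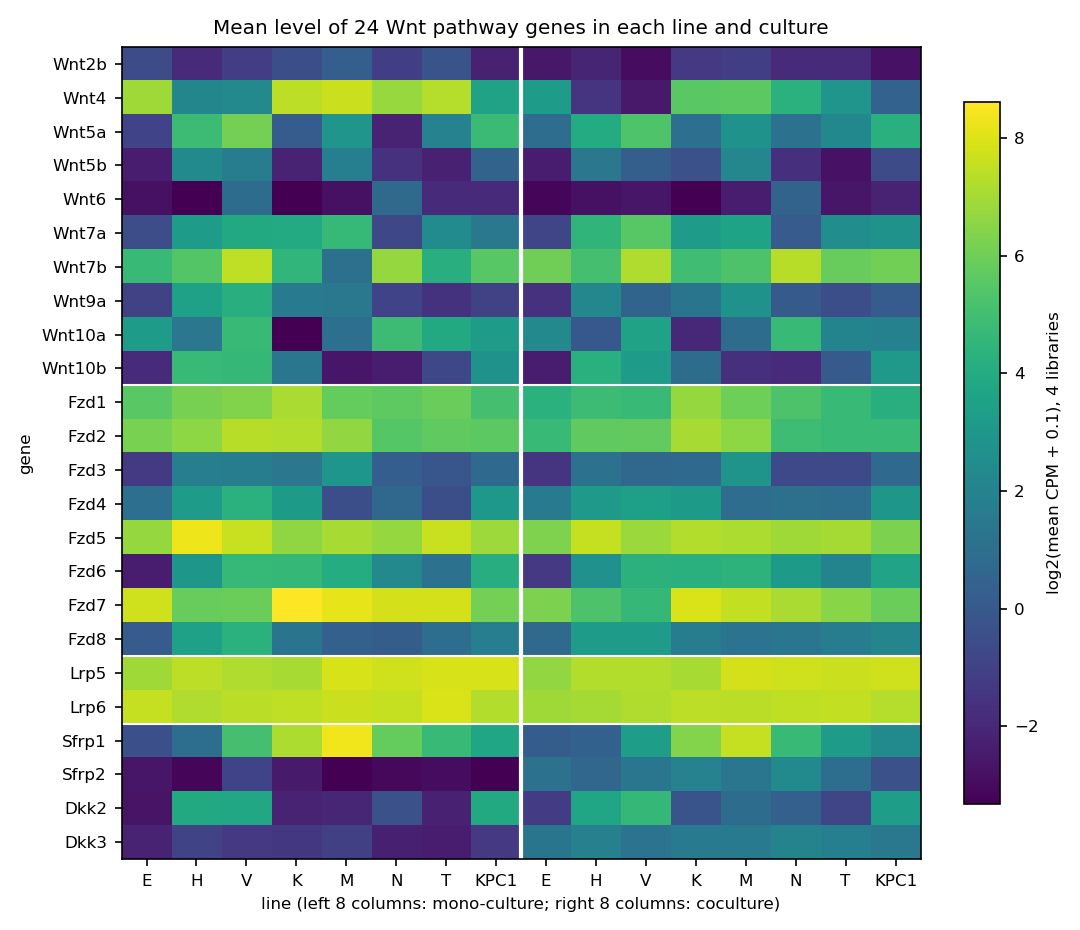
Colour gives log2(mean CPM + 0.1) over 4 libraries for 24 genes (rows: ligands, Frizzleds, coreceptors, Sfrp and Dkk genes) in 8 lines (columns), mono-culture left of the white line and coculture right of it. Left of the line Wnt4 is bright in E, K, M, N and T and darker in H, V and KPC1, and right of it Wnt4 is darker in every line. Sfrp1 runs from dark in E to bright in M, and Sfrp2 and Dkk3 are dark on the left and lighter on the right.

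The first comparison asked which members differed between the lines before any contact with fibroblasts. Of 24 members tested, 23 differed between the 8 mono-cultures beyond the spread of single libraries (edgeR F test over 7 contrasts, adjusted p under 0.1). Over all genes tested 95.1% did, so the count is no result about these genes, and the sizes and the order of the lines are given instead. Dkk3 did not pass (edgeR adjusted p = 0.138).

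Wnt4 (chromosome 4, 137277489 to 137299726, plus strand in GRCm38, GENCODE M21) had a high and a low set of lines. Its mono-culture libraries read 195, 221, 176 and 214 CPM in M and 135, 197, 114 and 253 CPM in K. In H they read 2.58, 4.75, 5.08 and 4.83 CPM and in V 3.06, 8, 3.31 and 5.04 CPM. The 20 libraries of E, K, M, N and T all lay above the 12 of H, V and KPC1. The highest and lowest line means, in M (201 ± 20.2 CPM, SD, n = 4) and H (4.31 ± 1.16 CPM), were 46.7-fold apart (edgeR adjusted p over the 8 lines = 1.97e-18). Within N the 4 libraries spread widely, at 124, 222, 50.5 and 41.6 CPM.

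Fzd7 (chromosome 1, 59482424 to 59486955, plus strand) had the same 5 lines at the top, with a smaller range. Its line means were highest in K (393 ± 24.1 CPM), M (289 ± 28.9 CPM) and N (229 ± 97.8 CPM). They were lowest in KPC1 (70.3 ± 9.63 CPM), V (62 ± 12.9 CPM) and H (57.4 ± 8.08 CPM), and the last 3 did not separate beyond their spread.

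4 genes had their highest means in H and V: the ligands Wnt5a, Wnt10b and Wnt9a and the receptor Fzd8. Wnt5a, the classical ligand of β-catenin-independent signalling, read 65.2, 69.2, 68 and 79.3 CPM in V and 0, 0.297, 0.0815 and 0.143 CPM in N. KPC1 (28 ± 4.3 CPM) and H (29.1 ± 3.31 CPM) lay between and did not separate from each other. The range over the 8 lines was 541-fold (edgeR adjusted p = 6.16e-31). Wnt10b, which is known for holding back fat cell formation, stood at 26.4 CPM in H and 24.4 CPM in V, at 6.8 CPM in KPC1, at 2.51 CPM in K and under 1 CPM in the other 4 lines. Wnt9a stood at 17.6 CPM in V and 11.2 CPM in H and at no more than 2.99 CPM elsewhere. Fzd8 stood at 19.8 CPM in V and 11.4 CPM in H and at no more than 3.38 CPM elsewhere.

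The secreted inhibitors Sfrp1 and Dkk2 were high in different lines. Sfrp1 (chromosome 8, 23411502 to 23449632, plus strand) libraries read 306, 338, 345 and 336 CPM in M against 0.555, 0.671, 0.913 and 0.434 CPM in E, a 515-fold range of means (edgeR adjusted p = 1.71e-29). The order of its means was M, K (144 CPM), N (55.3), V (34.3), T (27.4), KPC1 (13.4), H (1.9) and E, and the libraries of V and T overlapped. Dkk2, a Dickkopf protein that binds Lrp5 and Lrp6, stood at 15.2 ± 6.7 CPM in H, 15.1 ± 6.63 CPM in KPC1 and 14.1 ± 3.62 CPM in V, which did not separate, and at 0.671 CPM or less in the other 5 lines.

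2 pairs of neighbouring Wnt genes shared their line pattern. Wnt1 and Wnt10b lie 11707 bases apart on chromosome 15, on opposite strands, and Wnt6 and Wnt10a lie 6194 bases apart on chromosome 1, on the same strand (GRCm38, GENCODE M21). Wnt1 was far lower than its neighbour, with 65 counts over the 64 libraries, and was seen mostly in V, H and KPC1, at 0.29, 0.254 and 0.179 CPM. Over the 8 mono-culture means Pearson's r was 0.943 and Spearman's rho 0.927 for this pair. Wnt10a stood at 29.4 CPM in N and 27.3 CPM in V, the same 2 lines in which Wnt6 passed 1 CPM (1.66 and 1.79 CPM), with r = 0.924 and rho = 0.91. These are descriptions over 8 points drawn from the same libraries. Lines V, H and KPC1 were also the highest for Wnt5a and for Dkk2, which lies on chromosome 3, and no r is given for pairs that are not neighbours. No member shares a stretch of 76 bases, the read length, with another member in GENCODE M21 transcripts. Wnt9a, at 59306928 to 59333552 on chromosome 11, has Wnt3a as its neighbour, of which 1 count was seen in all.

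The next comparison asked which members changed in coculture in the same way across lines, with the line as the replicate. Since the clones come from a single tumour, the SE over lines does not measure the spread between tumours. Of 23 members tested, 12 changed (edgeR quasi-likelihood test on 16 sums, adjusted p under 0.1), 3 upwards and 9 downwards, where 54.6% of all genes tested changed, 27.2% upwards and 27.4% downwards. The members' share was thus close to that of all genes. The median log2 fold change was -0.098 over the 23 members and -0.000892 over all 14478 genes. Wnt2b is counted as a fall here although its direction differs between the deposited tables, and without it 11 of 22 members changed, 3 upwards and 8 downwards, with 2 of 8 ligands down. By role, 3 of 9 ligands fell (Wnt4, Wnt10a and, in the count table, Wnt2b), 4 of 8 Frizzleds (Fzd7, Fzd1, Fzd2 and Fzd3), 1 of 2 coreceptors (Lrp6) and 1 of 4 Sfrp and Dkk genes (Sfrp1). The 3 genes that rose were also of the Sfrp and Dkk families (Sfrp2, Dkk3 and Dkk2). Among the coculture libraries these 3 moved with fibroblast genes (r = 0.919, 0.932 and 0.541 over 32 libraries, as deviations from line means), whose part in the result was not tested. Wnt5a (0.688), Lrp5 (0.599), Lrp6 (0.598) and Fzd8 (0.549), which were not called higher over the lines, had an r above that of Dkk2. The remaining members tested had lower values.

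**Figure D3:**
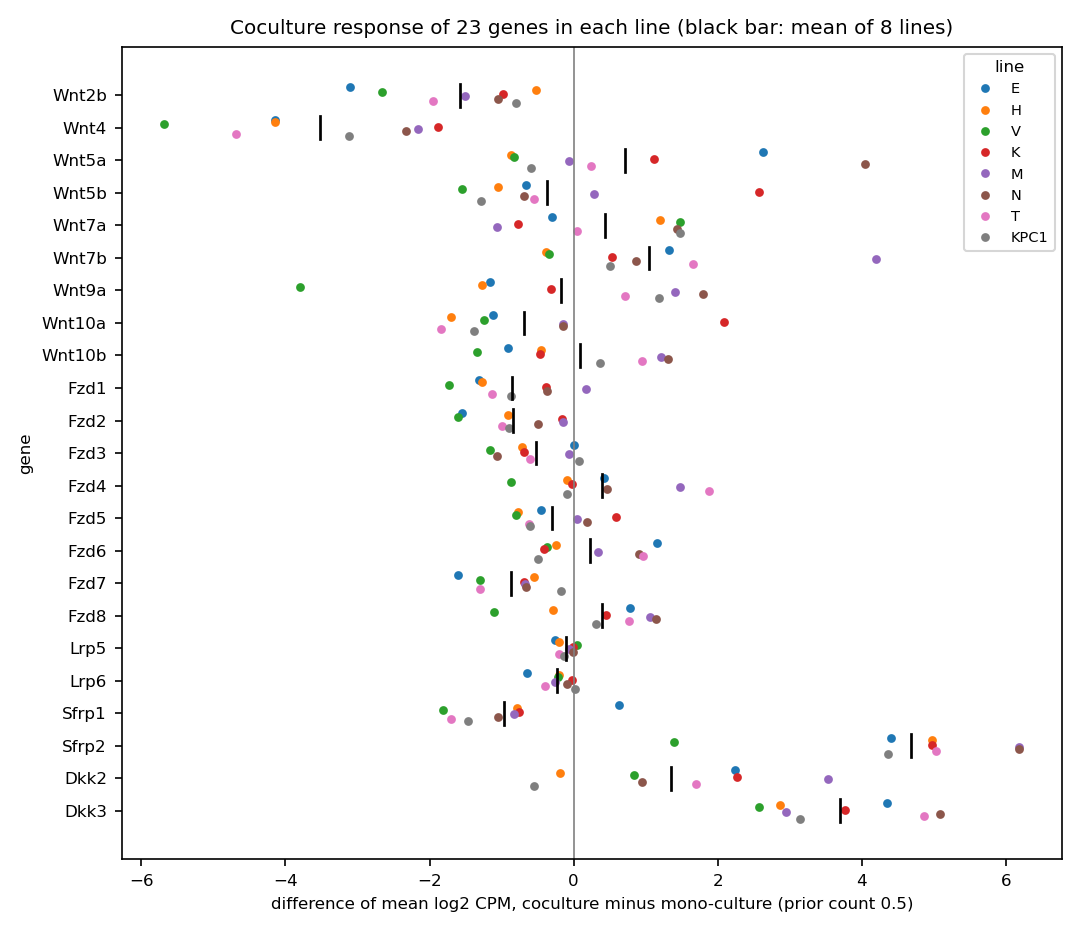
Each point is 1 line's difference of mean log2 CPM, coculture minus mono-culture, for 23 genes (rows), and the black bar is the mean of the 8 lines. All 8 points of Wnt4 lie left of 0 and all 8 points of Sfrp2 and Dkk3 lie right of it, whereas those of Wnt5a, Wnt9a and Wnt10b lie on both sides.

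Sequence upstream of the start is shown for 3 members that fell over the lines and 2 that rose, so that genes that moved together can be set side by side. The bases are RefSeq's (GRCm38.p6), 5′ to 3′ in the direction of the gene, from a table that held 25 of the 39 members. The windows are Wnt4 at chr4:137277385-137277488 (plus strand, ended before the first base of the GENCODE gene), Fzd1 at chr5:4758217-4758466 (minus strand), Fzd7 at chr1:59481897-59482146 (plus), Sfrp2 at chr3:83766071-83766320 (plus) and Dkk2 at chr3:132085042-132085291 (plus). Capitals mark a match to CTTTGA, a form of the core of the TCF/LEF motif, on either strand. Other forms, such as CTTTGT, were not searched for, so a window without capitals may hold them.
Wnt4: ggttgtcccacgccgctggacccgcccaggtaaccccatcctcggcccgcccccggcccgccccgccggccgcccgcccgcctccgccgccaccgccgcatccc
Fzd1: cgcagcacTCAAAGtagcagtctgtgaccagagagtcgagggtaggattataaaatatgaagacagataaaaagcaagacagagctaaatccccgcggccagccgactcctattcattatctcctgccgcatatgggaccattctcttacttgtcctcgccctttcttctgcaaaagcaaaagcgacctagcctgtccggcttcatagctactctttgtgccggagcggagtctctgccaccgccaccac
Fzd7: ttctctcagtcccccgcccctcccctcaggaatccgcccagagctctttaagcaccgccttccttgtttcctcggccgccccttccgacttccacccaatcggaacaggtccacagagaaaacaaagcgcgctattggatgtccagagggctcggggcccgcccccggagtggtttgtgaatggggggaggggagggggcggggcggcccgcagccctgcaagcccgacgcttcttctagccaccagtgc
Sfrp2: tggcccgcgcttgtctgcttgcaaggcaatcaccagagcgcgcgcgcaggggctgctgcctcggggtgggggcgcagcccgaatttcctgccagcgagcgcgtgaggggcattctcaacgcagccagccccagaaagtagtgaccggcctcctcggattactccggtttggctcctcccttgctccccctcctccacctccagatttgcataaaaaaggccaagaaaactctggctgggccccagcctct
Dkk2: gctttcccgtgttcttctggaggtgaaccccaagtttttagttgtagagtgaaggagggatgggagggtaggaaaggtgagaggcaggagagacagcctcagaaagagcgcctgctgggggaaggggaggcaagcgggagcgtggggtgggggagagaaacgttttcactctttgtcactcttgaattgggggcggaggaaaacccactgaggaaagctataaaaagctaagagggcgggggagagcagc

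The window of Wnt4 is 83.7% G and C and that of Fzd1 51.2%. Among the windows shown, Fzd1 alone held CTTTGA, and none held the AP-1 motif TGANTCA (where N is any base), also searched on both strands. The 2 motifs can share the letters TGA. Of all 32851 windows of 250 bases, 13.8% held CTTTGA and 6.75% held TGANTCA, and of the 25 members with a window 4 and 1 did. A match describes letters and is no evidence of binding.

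Wnt4 fell in every line. In E its 4 libraries went from 102, 120, 132 and 136 CPM to 8.1, 23, 4.89 and 2.37 CPM. In T they went from 136, 149, 159 and 184 CPM to 10.7, 3.2, 3.08 and 12.5 CPM. In V they went from 3.06, 8, 3.31 and 5.04 CPM to 0, 0.0675, 0.181 and 0.0566 CPM. In these 3 lines the coculture libraries lay far below all mono-culture libraries. The high lines K and M kept more Wnt4. Libraries of K read 135, 197, 114 and 253 CPM and 39.8, 69.2, 45.8 and 33.2 CPM, respectively. Those of M read 195, 221, 176 and 214 CPM and 69, 67, 27 and 31.8 CPM. N went from 124, 222, 50.5 and 41.6 CPM to 27, 28.2, 13.5 and 8.78 CPM. Mono-culture and coculture stayed apart here too, although N spread widely. H went from 2.58, 4.75, 5.08 and 4.83 CPM to 0.543, 0.298, 0.0567 and 0.153 CPM. KPC1 went from 5.62, 8.1, 18.8 and 14.5 CPM to 1.8, 0.754, 1.43 and 1.01 CPM. In all 8 lines every coculture library lay below every mono-culture library of that line. The fold by which the line mean fell ran from 3.72 in K and 4.13 in M to 21.3 in T and 63.6 in V, the last from 332 to 5 counts. Over the 8 lines the log2 fold change was -3.20 ± 0.37 (SE), edgeR adjusted p = 5.93e-04. Its size differed between lines (edgeR F test of line by culture, adjusted p = 0.00129).

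**Figure D4:**
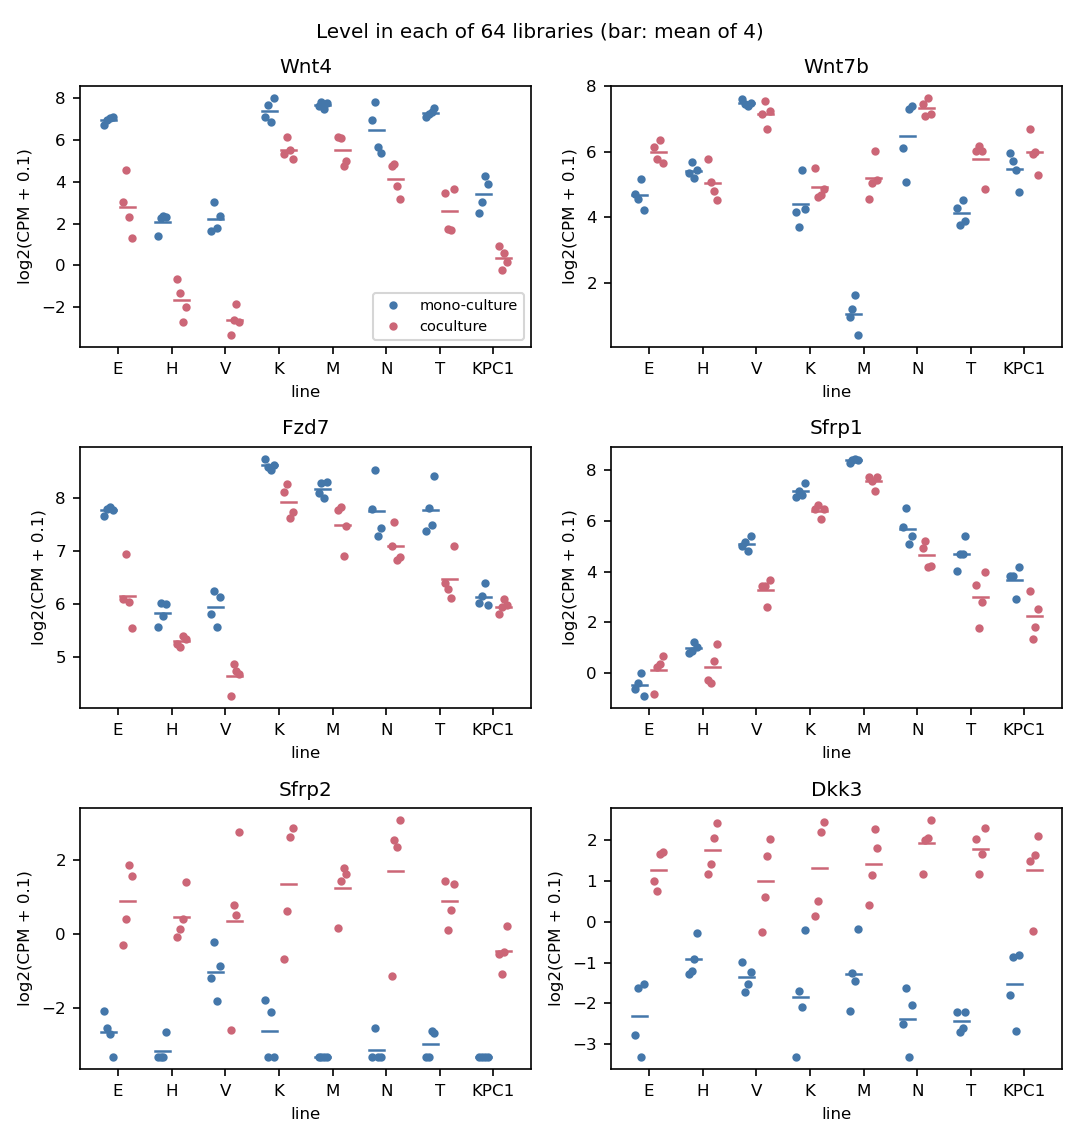
Each point is 1 library on a log2(CPM + 0.1) scale (mono-culture blue, coculture red) and each bar the mean of the 4 points, for Wnt4, Wnt7b, Fzd7, Sfrp1, Sfrp2 and Dkk3 in the 8 lines. Wnt4 points separate by culture in all lines, Wnt7b points of M rise from between 1.22 and 2.96 CPM to between 23.3 and 65.3 CPM, and Sfrp2 has many mono-culture points at the bottom of the scale, where the count was 0.

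Wnt7b gave a higher fitted value that did not pass the threshold over the lines (log2 fold change 0.91 ± 0.43 (SE), edgeR adjusted p = 0.11). It rose in 3 lines when tested one by one. M libraries went from 1.82, 2.19, 2.96 and 1.22 CPM to 23.3, 33, 65.3 and 34.9 CPM, a log2 fold change of 4.26 ± 0.44 (edgeR adjusted p = 1.44e-10). E libraries went from 26.1, 23.6, 35.8 and 18.5 CPM to 69.8, 55, 82.3 and 50.1 CPM (edgeR adjusted p = 0.00135). T libraries went from 19.2, 13.5, 23.1 and 14.6 CPM to 64.2, 72.5, 64.6 and 28.9 CPM (edgeR adjusted p = 5.21e-05). In these 3 lines the cultures did not overlap. Wnt7b lies at chromosome 15, 85535437 to 85582473, minus strand, and an antisense gene, with 282 counts over all libraries, shares 324 bases with its exons. V and H, where Wnt7b was 179.9 and 43.1 CPM in mono-culture, had fitted values of -0.31 and -0.32 that did not pass. In N, mono-culture libraries 1 to 4 read 68.5, 33.2, 158 and 169 CPM and coculture libraries 176, 136, 199 and 141 CPM. The test of N missed the threshold without the replicate number (edgeR adjusted p = 0.169) and passed with the number as a block (edgeR adjusted p = 0.0137), in 1 of the 3 lines whose same-numbered libraries deviated together. The response differed between lines (edgeR adjusted p = 2.06e-08).

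Of the other ligands, Wnt10a fell over the lines by 0.90 ± 0.35 (SE) on the log2 scale (edgeR adjusted p = 0.0548). It fell in E, H, V, T and KPC1, by the most in T, from 9.64, 12.4, 14.1 and 23.7 CPM to 5.87, 3.52, 2.52 and 4.58 CPM. It rose in K, with no count in mono-culture and 10 counts in coculture, at least 3.27-fold higher against a floor of 3 counts over the 4 libraries. The rise in K was lost without replicate 1, 3 or 4 (edgeR adjusted p up to 0.277). The call over the lines was lost when E, H, V, T or KPC1 was left out, with adjusted p up to 0.129. Wnt2b fell from a mean of 0.51 to 0.163 CPM in the count table (edgeR adjusted p = 0.00384), but its mean in the authors' RPKM table was 0.00579 in mono-culture and 0.00951 in coculture. The ratio of the 2 units implies a transcript of 43969 bases against 4201 annotated exonic bases, so the tables counted different reads for this gene and its direction is uncertain.

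Besides Wnt10a, 5 ligands moved in opposite directions in different lines, namely Wnt5a, Wnt5b, Wnt7a, Wnt9a and Wnt10b. Wnt5a rose where it was lowest and fell where it was highest. In N it went from 0, 0.297, 0.0815 and 0.143 CPM to 0.901, 2.45, 2.82 and 2.35 CPM, and in V from 65.2, 69.2, 68 and 79.3 CPM to 34.4, 42.6, 36.2 and 45.5 CPM. It rose in E, K and N and fell in H, V and KPC1 (edgeR adjusted p for the difference between lines = 1.22e-08). Across the 32 coculture libraries, as deviations from line means, Wnt5a had r = 0.688 with the 4 fibroblast genes, and their part in the result was not tested. Wnt9a went from 15.6, 22.2, 10.2 and 22.2 CPM to 1.07, 1.35, 0.542 and 2.44 CPM in V (-3.68 ± 0.39 on the log2 scale). In M the same gene went from 1.71, 2.57, 3.74 and 2.61 CPM to 6.28, 8.49, 7.27 and 5.67 CPM (1.38 ± 0.36). It fell in H and V and rose in M, T and KPC1 (edgeR adjusted p for the difference between lines = 1.56e-10), and in N it rose only with the replicate number as a block (edgeR adjusted p = 0.0921, 0.12 without). Wnt7a, a ligand known from limb and female tract patterning, rose in H, V and KPC1, most in V, from 13.7, 17.4, 15.8 and 13.1 CPM to 29.8, 40.5, 82.1 and 29.7 CPM. It fell in M, from 22.1, 26.6, 32.6 and 21.1 CPM to 13.5, 12, 13.6 and 9.55 CPM (edgeR adjusted p for the difference = 1.97e-06). The Wnt7a libraries of the cultures did not overlap in V or M. Wnt5b, a close relative of Wnt5a, fell in H, V and KPC1 and rose in K, from 0, 0.276, 0.134 and 0.0696 CPM to 0.467, 0.905, 0.459 and 0.867 CPM. Wnt10b fell in V, from 24.5, 18.3, 25.1 and 29.9 CPM to 8.83, 8.58, 11.6 and 9.12 CPM. It also fell in H, from 29.5, 19.7, 20.3 and 36 CPM to 16.8, 18.1, 20.3 and 19.8 CPM, and rose in T, from a mean of 0.502 to 0.949 CPM. Wnt6 fell in V, from 1.02, 2.25, 1.62 and 2.26 CPM to 0.0669, 0.135, 0 and 0.0566 CPM. Its neighbour Wnt10a fell in V too, but also in E, H, T and KPC1, where Wnt6 did not pass. Some of these calls rest on single libraries. Those of Wnt5a were lost in K without replicate 1, 3 or 4 (edgeR adjusted p up to 0.462) and in KPC1 without replicate 2, 3 or 4 (edgeR adjusted p up to 0.307). Those of Wnt9a were lost in T without replicate 2 or 3 (edgeR adjusted p up to 0.5) and in KPC1 without replicate 1, 2 or 4 (edgeR adjusted p up to 0.214). Those of Wnt5b were lost in H without replicate 2 or 3 (edgeR adjusted p up to 0.225) and in KPC1 without replicate 2, 3 or 4 (edgeR adjusted p up to 0.427). Those of Wnt10b were lost in H without replicate 1 or 4 (edgeR adjusted p up to 0.369) and in T without replicate 1 or 3 (edgeR adjusted p up to 0.247).

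Among the receptors, Fzd1, Fzd2 and Fzd7 fell by like amounts over the lines. Fzd7 fell in 7 lines, and over all lines by 0.87 ± 0.15 (SE) on the log2 scale (edgeR adjusted p = 0.00234). In E its libraries went from 201, 220.3, 228 and 219 CPM to 68.1, 123, 65.5 and 46.8 CPM, and in V from 56.2, 75.6, 46.9 and 69.4 CPM to 19, 28.8, 26.4 and 25.5 CPM. KPC1 was the exception, with 64.3, 70.4, 83.9 and 62.6 CPM and 55.8, 61, 67.6 and 62.6 CPM, which overlapped. Fzd2 fell in 6 lines, and over the lines by 0.84 ± 0.17 (SE) (edgeR adjusted p = 0.00438). In V it went from 157, 201, 124 and 169 CPM to 64.1, 57.4, 46.8 and 45.1 CPM, whereas in K it read 147, 164, 161 and 127 CPM and 149, 154, 137 and 98.1 CPM. Fzd1 fell in 5 lines, and over the lines by 0.85 ± 0.19 (SE) (edgeR adjusted p = 0.00601). In V it went from 79.2, 90.9, 70.1 and 87.6 CPM to 25, 33.2, 12.5 and 34.5 CPM, whereas in M it read 50.2, 58.2, 57.5 and 58.1 CPM and 63.9, 75.5, 54.2 and 60 CPM. Neither Fzd1 nor Fzd2 passed the test in K or M, and the response differed between lines for both (edgeR adjusted p = 1.39e-04 and 1.75e-05). The calls of Fzd7 were lost in H without replicate 1, 2 or 4 (edgeR adjusted p up to 0.138), in K without replicate 1, 3 or 4 (edgeR adjusted p up to 0.138) and in M without replicate 3 (edgeR adjusted p up to 0.128), and that of Fzd2 in N without replicate 2 (edgeR adjusted p up to 0.225).

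The other Frizzleds varied by line. Fzd5, which serves β-catenin signalling in gut and other epithelia, fell in E, H, V, T and KPC1 and rose in K, from 103, 114, 71.6 and 112 CPM to 113, 143, 183 and 165 CPM. Its highest line was H, which went from 326, 286, 369.6 and 304 CPM to 257, 179, 175 and 156 CPM, and these libraries did not overlap. Fzd6 means were at most 25.8 CPM in any mono-culture. Fzd6 rose in E, N and T and fell in V and KPC1, and passed in M only with the replicate number as a block (edgeR adjusted p = 0.0654, 0.164 without). Fzd6 in E went from 0.0462, 0, 0.215 and 0.124 CPM to 0, 0.274, 0.419 and 0.502 CPM, and those libraries overlapped. Fzd4, known as the Norrin receptor of retinal vessels, rose in M and T, where it was lowest, and fell in V, where it was highest. In M it went from 0.53, 0.643, 0.657 and 0.668 CPM to 1.52, 2.02, 2.16 and 1.57 CPM, and in V from 19.8, 20.9, 18.8 and 18.7 CPM to 10.8, 10.7, 10.4 and 10.8 CPM. Fzd8 fell in V, from 19.2, 22.6, 15.9 and 21.6 CPM to 7.56, 10.7, 7.35 and 11.7 CPM, and rose in E, M, N and T. Fzd3, a receptor of axon guidance and planar polarity, was low, with a mean of 2.56 CPM in mono-culture, and fell over the lines by 0.57 ± 0.16 (SE) on the log2 scale (edgeR adjusted p = 0.0187). In V it went from 2.44, 4.66, 3.43 and 2.45 CPM to 0.803, 1.69, 1.26 and 2.15 CPM, and in N from 1.35, 1.11, 0.978 and 0.927 CPM to 0.661, 0.42, 0.313 and 0.706 CPM. It fell in H, V, K and N, and was highest in M, at 7.24, 7.58, 6.96 and 8.51 CPM and 7.11, 6.46, 7.06 and 8.36 CPM, where it did not pass. Calls of Fzd3 were lost in H without replicate 3 or 4 (edgeR adjusted p up to 0.176), in K without replicate 1, 2 or 4 (edgeR adjusted p up to 0.348) and in N without replicate 3 (edgeR adjusted p up to 0.12). Calls of Fzd5 were lost in E without replicate 1 or 4 (edgeR adjusted p up to 0.112) and in K without replicate 3 (edgeR adjusted p up to 0.174). Calls of Fzd6 were lost in E without replicate 2 or 4 (edgeR adjusted p up to 0.199), in V without replicate 1, 3 or 4 (edgeR adjusted p up to 0.192) and in KPC1 without replicate 2 or 4 (edgeR adjusted p up to 0.217). Calls of Fzd8 were lost in E without replicate 1 (edgeR adjusted p up to 0.409), in M without replicate 2 (edgeR adjusted p up to 0.138) and in T without replicate 4 (edgeR adjusted p up to 0.129).

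The coreceptors showed small differences. Lrp6 fell over the lines by 0.22 ± 0.08 (SE) on the log2 scale (edgeR adjusted p = 0.0423), from a mean of 183 to 157 CPM, and in E and T when tested alone. Without T among the lines the adjusted p was 0.101. In E, where the fall was largest, its libraries went from 191, 135, 239 and 186 CPM to 92.2, 115, 182 and 99 CPM, and they overlapped. With the replicate number as a block Lrp6 also passed in V and M (edgeR adjusted p = 0.0752 and 0.0477, 0.243 and 0.168 without). Lrp5 had means of 187 and 175 CPM (edgeR adjusted p = 0.16) and fell in E alone (-0.23 ± 0.12 on the log2 scale), a call lost without replicate 1 or 4 (edgeR adjusted p up to 0.584). Its response did not pass the test of a difference between lines (edgeR adjusted p = 0.589).

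Sfrp1 fell over the lines by 1.00 ± 0.21 (SE) on the log2 scale (edgeR adjusted p = 0.00481). It fell in V, K, M, N, T and KPC1. M went from 306, 338, 345 and 336 CPM to 212, 189, 145 and 209 CPM. T went from 16.1, 25.8, 25.6 and 42 CPM to 10.9, 3.33, 6.96 and 15.6 CPM. The 2 lines in which it did not pass were those with the least Sfrp1, E, at 0.643 and 1.06 CPM, and H, at 1.9 and 1.21 CPM. The calls were lost in K without replicate 1, 3 or 4 (edgeR adjusted p up to 0.199) and in M without replicate 3 (edgeR adjusted p up to 0.122).

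Sfrp2 (chromosome 3, 83766321 to 83774316, plus strand) and Dkk3 (chromosome 7, 112116017 to 112159057, minus strand) rose in all 8 lines, from a few counts or none. Sfrp2 had 44 counts in the 32 mono-culture libraries together, 30 of them in V, and 1211 in the 32 coculture libraries. An antisense gene that shares 347 bases with its exons had 19 counts over all 64. In N its libraries went from 0, 0.0742, 0 and 0 CPM to 0.36, 5.74, 5.07 and 8.47 CPM, and in M from no count in 4 libraries to 1.03, 2.65, 3.38 and 2.99 CPM, at least 52.9-fold higher. The cultures lay apart in both. In E its libraries went from 0.139, 0.0745, 0.0537 and 0 CPM to 0.724, 1.23, 3.56 and 2.87 CPM, and in T from 0, 0, 0.0646 and 0.0586 CPM to 2.61, 0.979, 1.48 and 2.47 CPM. In H it went from 0, 0, 0 and 0.0611 CPM to 0.846, 1.01, 1.25 and 2.55 CPM. In KPC1 it went from no count to 0.599, 0.377, 0.619 and 1.08 CPM, at least 14.6-fold higher. V was the exception, with 0.34, 0.769, 0.187 and 0.452 CPM and 0.0669, 1.62, 1.33 and 6.74 CPM, which overlapped. The rise in V was lost without replicate 4 (edgeR adjusted p = 0.294). Over the lines the fitted log2 fold change was 5.36 ± 0.59 (SE) (edgeR adjusted p = 4.85e-04), a value that depends on the prior count since 2 lines had none in mono-culture. Dkk3, a divergent Dickkopf relative not counted among the Lrp5 and Lrp6 antagonists, had 127 counts in mono-culture and 1509 in coculture. In T its libraries went from 0.117, 0.0537, 0.0646 and 0.117 CPM to 3.98, 2.15, 3.08 and 4.8 CPM, and in V from 0.407, 0.205, 0.249 and 0.323 CPM to 0.736, 1.42, 2.95 and 3.96 CPM. In N it went from 0.075, 0.223, 0 and 0.143 CPM to 2.16, 3.92, 4.07 and 5.57 CPM. In all 8 lines the cultures did not overlap, and the fold of the line means ran from 7.66 in V to 39.7 in T (over the lines log2 3.70 ± 0.30 (SE), edgeR adjusted p = 6.79e-05).

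Sfrp2 and Dkk3 both moved with fibroblast mRNA among the coculture libraries. Over the 32 libraries, as deviations from line means of log2 CPM, r with the summed Dcn, Fap, Postn and Thy1 was 0.919 for Sfrp2 and 0.932 for Dkk3, against a median of 0.00871 over all 14478 genes. Libraries of a line may share cultures and a sort, so that this r is a description. V coculture libraries 1 to 4 had 14.6, 48.7, 59.3 and 104 CPM of the 4 fibroblast genes, and their Sfrp2 read 0.0669, 1.62, 1.33 and 6.74 CPM and their Dkk3 0.736, 1.42, 2.95 and 3.96 CPM. The library with the least fibroblast mRNA thus had the least of both genes, and the one with the most had the most. K coculture libraries with 26.3, 32.1, 155 and 150 CPM of those genes read 0.533, 1.46, 6.09 and 7.31 CPM for Sfrp2. Wnt4 (r = -0.107), Fzd7 (-0.166), Fzd1 (-0.0121) and Fzd2 (-0.367) showed no such positive relation. Lower but positive values were seen for Wnt5a (0.688), Lrp5 (0.599), Lrp6, which fell over the lines (0.598), Fzd8 (0.549), Dkk2 (0.541) and Fzd3 (0.357). The part of fibroblast RNA in these results was not tested, and the levels of fibroblasts grown alone were not analysed here.

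**Figure D5:**
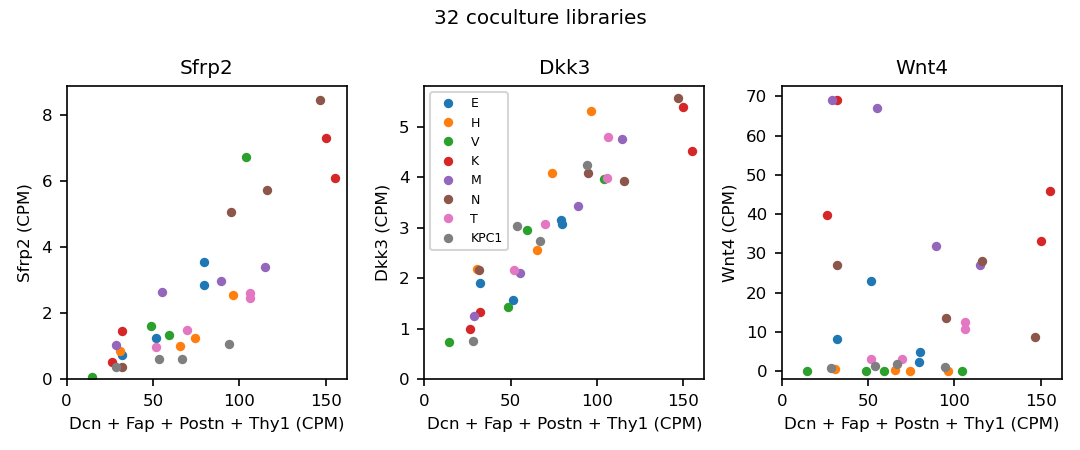
Each point is 1 of 32 coculture libraries, coloured by line, with the summed CPM of Dcn, Fap, Postn and Thy1 on the x axis and the CPM of Sfrp2, Dkk3 or Wnt4 on the y axis. Sfrp2 and Dkk3 rise along the x axis within each line, and Wnt4 points of H, V and KPC1 lie near 0 over the whole range.

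Dkk2 rose over the lines by 1.14 ± 0.45 (SE) on the log2 scale (edgeR adjusted p = 0.0591), most in M, from 0, 0.321, 0.0657 and 0.182 CPM to 1.38, 0.545, 3.6 and 1.42 CPM. It rose in E, V, K, M and T. V, at high levels in both cultures, went from 17.5, 10.4, 16.8 and 11.6 CPM to 25.9, 22.4, 21.4 and 29.6 CPM, and those libraries did not overlap. In H, one of its 3 high lines, it read 24.6, 15.1, 9.19 and 12.1 CPM and 22.3, 11.6, 9.01 and 10.5 CPM and did not pass, nor did it in KPC1 or N. Single-line calls were lost in E without replicate 2 or 4 (edgeR adjusted p up to 0.167), in V without replicate 4 (edgeR adjusted p up to 0.221), in K without replicate 3 or 4 (edgeR adjusted p up to 0.292) and in T without replicate 1, 3 or 4 (edgeR adjusted p up to 0.155). The call over the lines was lost without E, K, M or T, with adjusted p up to 0.12.

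Line by line, the share of members that changed was close to that of all genes in N and E and above it in the other lines. The same 24 members were counted in each line, so these are not 8 separate results. Of 24 members tested, 21 changed in V (4 up, 17 down), beside 61.5% of all genes (30% up, 31.5% down). In T 18 changed (9 up, 9 down), beside 62.2% of all genes (31.5% up, 30.7% down). In E 16 changed (7 up, 9 down), beside 61.3% of all genes (32.1% up, 29.2% down). In H 14 changed (3 up, 11 down), beside 44% of all genes (21.4% up, 22.6% down). In KPC1 13 changed (4 up, 9 down), beside 39.2% of all genes (20.1% up, 19% down). In E, V, H and KPC1 more of the called members had fallen than risen. In M 12 changed (7 up, 5 down), beside 38.9% of all genes (21.6% up, 17.3% down). In K 11 changed (7 up, 4 down), beside 20.5% of all genes (12.5% up, 8.02% down). In N 10 changed (5 up, 5 down), beside 37.4% of all genes (20% up, 17.4% down). The median log2 fold change of the members was -1.11 in V against -0.00598 over all genes, the lowest of the 8 lines, and 0.132 in M against 0.0101, the highest. The response itself differed between lines for 21 of 24 members, beside 71.3% of all genes, the exceptions being Lrp5, Dkk3 and Wnt2b (edgeR adjusted p = 0.589, 0.21 and 0.117). Among the K calls, those of Sfrp1, Wnt5a and Fzd3 were lost with the number series as a covariate (edgeR adjusted p = 0.103, 0.115 and 0.122). In K, leaving out 1 replicate moved the counts from 7 up to between 3 and 7 up, and from 4 down to between 1 and 3 down.

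The study's own division, group 1 (E, H and V) against group 2 (K, M, N and T), was compared in mono-culture with the clone as the replicate. No member of 23 tested differed (edgeR adjusted p under 0.1), and none of 14829 genes did (0%). At an unadjusted p under 0.05 there were 4, beside 5.17% of all genes. These were Dkk2, Fzd8 and Wnt10b, higher in group 1 by 5.19, 2.75 and 4.41 on the log2 scale, and Fzd7, lower by 1.34, all at an edgeR adjusted p of 0.888. Clone E stood apart from H and V in all 4 genes. It had 0.0539 CPM of Dkk2 where H and V had 15.2 and 14.1 CPM, and 217 CPM of Fzd7 where they had 57.4 and 62 CPM. Wnt4, at 122 CPM in E, also sat with the group 2 clones, at 109 to 201 CPM. Without clone E, Dkk2 and Fzd8 were higher and Fzd7 and Wnt4 lower in group 1 (4 of 25 members called, beside 1.42% of all genes). Since E was picked out by the values of these same genes, the calls without it follow in part from that choice. They are no support for a difference between the groups. DESeq2 with all 7 clones called 2 of 32, Dkk2 and Fzd8, beside 1.02% of all genes.

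Other genes of the pathway were read from lists by role, outside the 39. Of the intracellular core 13 of 25 genes tested changed, 12 of them downwards, of coreceptors and planar polarity genes 7 of 13 (3 up, 4 down), of a list of R-spondin receptors, their ubiquitin ligases and Norrin 3 of 6 (Lgr4, Lgr5 and Rnf43 down, Lgr6, Znrf3 and Ndp not passing, and Rspo1 to Rspo4 too low to test), of secretion and inactivation genes 2 of 5 (1 up, 1 down), of other inhibitors 1 of 4 (down) and of target genes 7 of 13 (5 up, 2 down), beside the 54.6% of all genes given above. The median log2 fold changes ran from -0.662 for the list with the R-spondin receptors to 0.0266 for the secretion list, with -0.139 for the core. Lgr5, Rnf43 and Znrf3 are on that list and the target list. The 5 genes with the smallest adjusted p that fell were Tcf7l2, the main TCF factor of epithelia, by 0.93 ± 0.13 (SE) on the log2 scale, Apc, the scaffold of β-catenin destruction, by 0.30 ± 0.04 (SE), Ctnnb1, which encodes β-catenin, by 0.38 ± 0.06 (SE), the corepressor Tle4 by 0.95 ± 0.16 (SE) and the polarity cadherin Celsr1 by 1.08 ± 0.19 (SE) (edgeR adjusted p = 0.00136 to 0.00262). Ctnnb1 was lower in 8 of 8 lines, with a change from a mean of 1519 to 1187 CPM.

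Those with the smallest adjusted p that rose were Prickle2, Nkd2, Myc, Trabd2b and Nkd1. Myc, a β-catenin target among many other inputs, went from 288 ± 82.7 to 525 ± 161 CPM (SD over 8 lines), a log2 fold change of 0.84 ± 0.10 (SE) (edgeR adjusted p = 7.09e-04), and was higher in 8 of 8 lines. The other 4 were at line means of at most 0.104 CPM in mono-culture. Prickle2, a polarity gene, reached 1.54 CPM in coculture, Nkd2 and Nkd1, feedback inhibitors of Dishevelled, 1.05 and 0.563 CPM, and Trabd2b, a Wnt-cleaving protease, 0.773 CPM. Their r with the 4 fibroblast genes was 0.831 for Prickle2, 0.693 for Nkd2, 0.5 for Nkd1 and 0.827 for Trabd2b, against 0.263 for Myc, and the part of fibroblast RNA was again not tested. Axin2, the usual readout of β-catenin signalling, had means of 3.23 and 1.38 CPM and did not pass over the lines (edgeR adjusted p = 0.433). Its response differed between lines (edgeR adjusted p = 1.31e-08), with a fall in H, V and KPC1 (log2 -2.16, -3.00 and -1.72) and a rise in M (1.58). The R-spondin receptors Lgr4 and Lgr5 and the ubiquitin ligase Rnf43 fell by 1.25 ± 0.27 (SE), 2.54 ± 0.84 (SE) and 0.65 ± 0.22 (SE) on the log2 scale (edgeR adjusted p = 0.00545, 0.032 and 0.0382). Lgr5 nonetheless rose in M (log2 2.94 ± 0.81, edgeR adjusted p = 0.00437) and fell in 6 of the other lines.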

How the data were processed

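Poly(A) RNA of tumour cells from 8 lines, alone or after 48 h with fibroblasts, was sequenced as stranded paired-end reads of 76 bases in 64 libraries. The authors deposited raw read counts per gene (39017 genes) and RPKM values, which are scaled by transcript length and library depth (49585 genes). The submitters' processing notes name mm10, featureCounts and edgeR with no role. The aligner, the annotation and the strand setting of the counting are not given in the sources used here. Totals of 11178721 to 21333683 counts limit precision for genes of a few counts.

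Libraries were grouped by their labels. The groups 1 and 2 of clones come from the study. 1 allele of the tumour model is not reported here. Members and gene lists were chosen with earlier results of these data known. All 39 members are accounted for. Those past edgeR's filterByExpr were described by values and the others by their highest counts, and from the other Wnt lists the 5 genes a direction with the smallest adjusted p were named. CPM used TMM-scaled library sizes, log2 CPM a prior count of 0.5, and a fold against no counts a floor of 3 counts over the 4 libraries. edgeR's quasi-likelihood test (edgeR 4.0.16, limma 3.58.1, R 4.3.3) was run across all genes, two-sided, p adjusted by Benjamini-Hochberg and called under 0.1. The response over lines was fitted to 16 sums of 4 libraries with the line as a covariate, the groups to 1 sum per clone, and single lines and their differences to the 64 libraries (7-contrast F tests for differences). RPKM served only to compare levels between genes. DESeq2 1.42.0, limma on log2(RPKM + 1) and on log2(RPKM + 0.1), other scalings and filters, and leaving out libraries, lines or clones were the alternatives.

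Whether replicate numbers pair mono-culture with coculture was checked from the correlation of same-numbered libraries' deviations from their group means. Every pair passed 0.1 in V (0.156 to 0.44), M (0.159 to 0.407) and N (0.445 to 0.559), and not in the other 5 lines. The scripts were tested on simulated counts with known changes. Of 100 genes changed by a log2 of 1 among 14478, 88% were called in the response over the lines, and 11.2% of calls were false. A far larger share of genes was called in the data, so these rates check the scripts and need not hold for the data. Locations are those of GENCODE M21 (GRCm38, which is mm10) and promoter bases those of RefSeq.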

Additional observations from a re-analysis of the deposited data

Results flagged for a closer look

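Single lines stood apart from the other 7 by Dixon's test in 16 of 69 groups of 8 line values, where chance gives about 1 in 20 groups (3.45) if values are normally spread. Mean levels were tested in CPM, which is skewed between lines, so this chance number need not hold for them. The excess over it is therefore no result. Mean levels that stood apart were those of Fzd5 in H (321.6 CPM, mono-culture), Fzd1 in K (138.3 CPM, mono-culture), Fzd4 in V (19.53 CPM, mono-culture), Sfrp2 in V (0.4369 CPM, mono-culture) and Wnt10a in N (26.5 CPM, coculture). Both cultures stood apart for Sfrp1 in M (331 and 188.6 CPM in mono-culture and coculture), Wnt5a in V (70.43 and 39.69 CPM) and Fzd3 in M (7.573 and 7.246 CPM). For the difference between the cultures, in mean log2 CPM, a line stood apart for Wnt7b (M, 4.202), Wnt10a (K, 2.092), Wnt5b (K, 2.568), Sfrp1 (E, 0.6304) and Sfrp2 (V, 1.394, the smallest rise of the 8).

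Among 281 groups of 4 libraries, 7 held a library apart from the other 3, where chance gives about 14.05 for normally spread values. In mono-culture these were library 2 of E for Fzd5 (84.13 CPM), library 1 of E for Fzd2 (61.29 CPM), library 1 of H for Wnt4 (2.582 CPM), library 1 of M for Fzd1 (50.2 CPM) and library 1 of K for Fzd6 (27.03 CPM). In coculture they were library 1 of N for Lrp6 (139.1 CPM) and library 1 of H for Wnt9a (5.556 CPM).

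The coculture response differed between the 8 lines for 21 members by edgeR's F test of line by culture. Most of all genes tested differed as well (the share is given with the line-by-line counts above). The count is therefore no trait of these members. Among ligands the adjusted p from edgeR was 1.56e-10 for Wnt9a, 1.22e-08 for Wnt5a, 2.06e-08 for Wnt7b, 1.97e-06 for Wnt7a, 6.33e-05 for Wnt10b, 3.65e-04 for Wnt10a, 8.01e-04 for Wnt6, 9.12e-04 for Wnt5b and 0.00129 for Wnt4. Among receptors it was 2.00e-07 for Fzd5, 6.93e-07 for Fzd6, 6.81e-06 for Fzd8, 1.75e-05 for Fzd2, 9.74e-05 for Fzd4, 1.39e-04 for Fzd1, 0.00272 for Fzd7, 0.0648 for Lrp6 and 0.0857 for Fzd3. Among inhibitors it was 1.23e-04 for Dkk2, 0.0258 for Sfrp1 and 0.0733 for Sfrp2.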

How the results depend on the processing

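Of 282 alternative counts of members called, 265 stayed within 1.5 times the value given in the report, and no direction of a single gene reversed (Wnt2b, whose RPKM means lie the other way, was too low for the limma fits). Over the 8 lines, the 3 members that rose became 6 with single libraries and no replicate block, 5 with the replicate block, 5 without line V (2 to 5 over the lines left out) and 1 with limma on log2(RPKM + 1) or log2(RPKM + 0.1), which tested 13 members. The 9 that fell were 9 to 11 without a replicate and 7 to 11 without a line, and Lrp6 was lost in the first number series alone (edgeR adjusted p = 0.139). In V the 4 that rose were 2 to 4 without a replicate. In K the 7 that rose were 3 to 7, and the 4 that fell were 1 to 3 without a replicate and 2 at an adjusted p under 0.05. Between the groups of clones, the count of 0 higher members became 2 with DESeq2, 0 to 2 without a clone (2 without E) and 6 with single libraries, and that of 0 lower members became 0 to 2 without a clone and 5 with single libraries. The fit of single libraries counts the 4 libraries of a clone as replicates of its group. Its 6 and 5 calls thus leave out the spread between clones and are no result about the groups. The cause of the other shifts was not tested. In the fits of single lines and of differences between lines the replicate block added calls and lost none, while among members that rose over the 8 lines it left 1 fewer than the single-library fit without it. In lines where the libraries share only a number it added Wnt7a and Fzd6 in K (edgeR adjusted p = 0.0583 and 0.0376) and Lrp5 in T (0.0981), and over all lines Dkk3, for the response (0.0467) and in mono-culture (0.0225). Depth limits the 16 members under the filter and the mono-culture levels of Sfrp2, Dkk3 and Dkk2, which rest on few counts.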
